A study of Mus musculus with 9 samples.

Results

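Messenger RNA of 9 genes, those of the Ikaros zinc finger family (Ikzf1, Ikzf2, Ikzf3, Ikzf4 and Ikzf5) and of the RUNX family with its partner subunit (Runx1, Runx2, Runx3 and Cbfb), was followed in mouse CD8+ T cells with and without inhibition of the histone demethylase LSD1. The genes were taken by symbol, and all 9 were found among the 24391 genes of the deposited count tables. The CD8+ cells, lymphocytes that kill infected or transformed cells, had been cultured with interleukin 2 at 100 U/mL and activated for 72 h. They were either left without the inhibitor (NT, 5 libraries) or activated in its presence (LSD1i, 4 libraries). The labels name neither the compound nor its dose, and give no strain, sex, age or number of animals, and a p-value therefore speaks of the scatter among these 9 libraries, part of which may be technical. The study's title places the comparison in work on adoptive T cell therapy.

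Ikaros proteins bind DNA through zinc fingers near one end and pair with each other through zinc fingers at the other, and they recruit chromatin-remodelling and deacetylase complexes to lymphocyte genes. Ikzf1 encodes Ikaros, Ikzf3 Aiolos, Ikzf2 Helios, Ikzf4 Eos and Ikzf5 Pegasus. Helios and Eos are best known from regulatory T cells, and Helios also marks some activated and unconventional T cells. RUNX proteins bind DNA through the Runt domain, as a pair with the non-DNA-binding subunit CBFβ, the product of Cbfb. In CD8+ T cells Runx3 silences Cd4 and supports the cytotoxic programme, Runx1 acts mainly in progenitors and thymocytes, and Runx2 is best known from bone and has also been linked to memory T cells.

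RUNX genes carry a distal and a proximal promoter. The sequences of the Runx3, Runx2 and Cbfb starts are shown, a selection from the genes whose levels moved together or in opposition across the libraries. Ikzf1 was also among those genes, and its starts are not shown. They are the 250 bases before each start listed by RefSeq for the mouse build GRCm38.p6, written 5′ to 3′ on the strand of the gene. In the RefSeq table used here entries were matched for 6 of the 9 genes, all but Ikzf2, Ikzf3 and Ikzf4. Capitals mark the RUNX core TGTGGT and the Ikaros core GGGAA, each searched on both strands. The Runx3 windows are chr4:135120395-135120644 (distal) and chr4:135152295-135152544 (proximal), both on the plus strand, the Runx2 window is chr17:44814628-44814877 on the minus strand, and the Cbfb window is chr8:105170424-105170673 on the plus strand.
Runx3, distal start: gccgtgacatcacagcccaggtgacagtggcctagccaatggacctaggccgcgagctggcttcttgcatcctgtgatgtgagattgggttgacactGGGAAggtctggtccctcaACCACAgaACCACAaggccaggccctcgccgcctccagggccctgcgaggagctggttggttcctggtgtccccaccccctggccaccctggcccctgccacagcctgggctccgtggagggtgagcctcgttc
Runx3, proximal start: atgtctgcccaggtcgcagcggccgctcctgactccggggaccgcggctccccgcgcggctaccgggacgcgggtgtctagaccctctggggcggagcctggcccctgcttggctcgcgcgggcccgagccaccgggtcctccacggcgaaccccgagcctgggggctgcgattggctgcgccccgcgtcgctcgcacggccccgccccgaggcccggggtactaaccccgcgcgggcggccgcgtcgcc
Runx2: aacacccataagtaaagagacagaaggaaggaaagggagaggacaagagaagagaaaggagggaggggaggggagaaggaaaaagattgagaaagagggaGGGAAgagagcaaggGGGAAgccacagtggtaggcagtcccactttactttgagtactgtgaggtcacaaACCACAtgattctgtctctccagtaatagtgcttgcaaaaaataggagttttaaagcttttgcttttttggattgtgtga
Cbfb: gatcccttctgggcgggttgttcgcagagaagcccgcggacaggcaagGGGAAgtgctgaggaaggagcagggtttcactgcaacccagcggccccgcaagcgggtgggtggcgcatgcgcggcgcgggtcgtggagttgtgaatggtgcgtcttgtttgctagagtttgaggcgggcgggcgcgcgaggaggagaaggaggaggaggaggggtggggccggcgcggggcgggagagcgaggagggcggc

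The distal Runx3 window held 2 RUNX cores, beginning 134 and 126 bases before the start, and 1 Ikaros core, beginning 153 bases before it. The proximal Runx3 window held neither and was richer in G and C (78.8% against 65.2%). The Runx2 window held 1 RUNX core, 80 bases before the start, and 2 Ikaros cores. The Cbfb window held 1 Ikaros core and 0 RUNX cores. Of the Ikzf1 windows, not shown, one held 2 Ikaros cores and the other 0, and each held 0 RUNX cores. Of 32851 windows of the same length, 14.0% held the RUNX core and 56.2% the Ikaros core on either strand. A match describes the letters and is no evidence of binding.

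Library totals ran from 15163983 to 29245278 raw reads, and raw counts per library from 45 (the lowest for Runx1) to 10731 (the highest for Ikzf1). Levels below are TMM-scaled CPM, counts divided by the effective library size, from the batch-corrected counts. Both tables label their columns alike, but 4 libraries do not carry the same name in them. By the genes at 0, replicates 1 and 2 have exchanged group names: raw NT 1 is corrected LSD1i 1, raw NT 2 is corrected LSD1i 2, and the other way round. The libraries of replicates 3 to 5 are named alike in both. The names of the batch-corrected table are used here, and each direction that rests on replicates 1 and 2 holds only if they are right. Replicates 1 and 2 also differed from replicates 3 to 5 in the raw table, for example in Rpph1, the RNA subunit of RNase P, at 0.297% to 0.476% against 2.83% to 3.09% of raw reads. The labels name no batch, and a term for these sets of replicates (set term) stands in for one where raw counts are fitted. The library called NT 1 stood apart, with 13.3% of its raw reads on the ribosomal precursor Rn45s against 1.66% to 2.87% in the other 8.

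Per kilobase of exon, Ikzf1 and Cbfb were the most abundant members and Runx1 the least. In NT the mean was 49.4 ± 12.4 CPM per kilobase (SD, n = 5) for Ikzf1 and 37.5 ± 7.77 for Cbfb. Then came Runx3 at 14.0 ± 7.26, Ikzf3 at 8.61 ± 2.62, Ikzf2 at 4.37 ± 1.37 and Ikzf5 at 3.56 ± 0.368. Runx2 stood at 2.19 ± 0.924, Ikzf4 at 1.39 ± 0.530 and Runx1 at 0.484 ± 0.159. Most neighbours in this order overlapped in range over the NT libraries, and the gaps without overlap were those between Cbfb and Runx3 and between Ikzf4 and Runx1. With the length of the longest coding transcript in place of the whole exonic length, Ikzf3 (20.6 ± 6.27) and Runx3 (18.1 ± 9.36) changed places. Ikzf4 (lowest NT library 0.966) and Runx1 (highest 1.42) then overlapped as well. Within the RUNX genes, Runx3 made up 77.8% to 85.7% of the summed level per kilobase in NT and 84.5% to 88.7% in LSD1i (n = 4), so it was the main RUNX transcript in each library. Within the Ikaros genes, Ikzf1 made up 71.3% to 75.4% in NT and 68.9% to 72.0% in LSD1i. These shares use the whole exonic length. By the longest coding transcript the NT mean of Ikzf3 went from 8.61 to 20.6 and that of Ikzf1 from 49.4 to 55.2. Ikzf1 then makes up less of the sum, though it stays the largest.

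**Figure D1:**
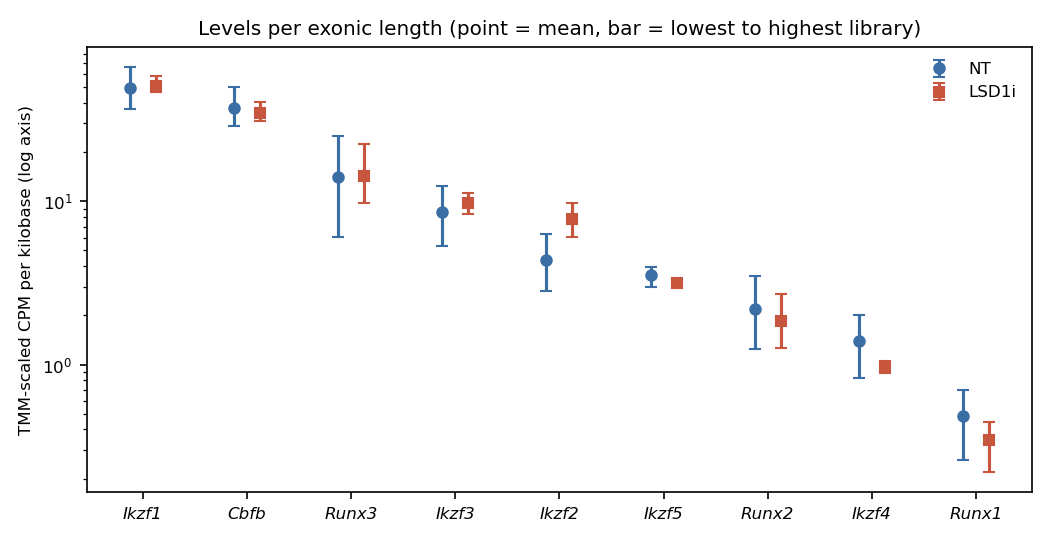
Level of each gene in TMM-scaled CPM per kilobase of exon (log axis) in NT (circles, 5 libraries) and LSD1i (squares, 4 libraries), as the mean with a bar from the lowest to the highest library. Ikzf1 and Cbfb lie highest and Runx1 lowest, and the groups come nearest to separating for Ikzf2.

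None of the 9 members passed an adjusted p of 0.05 when the batch-corrected counts were tested with edgeR (0 higher, 0 lower), and Ikzf2 came closest. Of all 11981 tested genes 3.31% were called, 2.15% higher and 1.16% lower. At an unadjusted p under 0.05 the test picked 1 of 9 members, Ikzf2, and 14.6% of all tested genes, so that share of members is no larger than the background. DESeq2 and limma voom each called 1 member, again Ikzf2. The median log2 fold change of the 9 members was −0.10, and that of all tested genes −0.019. The CPM of the groups overlapped for each of the 9 members, while 7.86% of all tested genes showed no overlap. In bulk RNA, fewer cells of a kind and less RNA per cell cannot be told apart.

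Ikzf2 (Helios) was at 73.7, 44.4, 59.2, 43.6 and 32.8 CPM in NT 1 to NT 5. It was at 84.1, 69.9, 114 and 94.3 CPM in LSD1i 1 to LSD1i 4. Only NT 1 reached into the LSD1i range, lying above LSD1i 2. The means were 50.7 ± 15.9 (SD, n = 5) and 90.6 ± 18.6 (n = 4), and the log2 fold change was 0.83 ± 0.21 (standard error), a 1.78-fold higher level that narrowly missed the threshold (adjusted p = 0.0614). Without NT 1 it was 1.02 ± 0.18 and passed (adjusted p = 0.00883), where 2.56% of all genes were called higher. Without LSD1i 2 it also passed (0.95 ± 0.22, adjusted p = 0.0498, background 1.93%), and leaving out any of the other 7 libraries gave an adjusted p of 0.0725 to 0.171.

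The call for Ikzf2 turned on the test as well as on the library. On the same counts DESeq2 gave an adjusted p of 0.00559, with 3.34% of all genes called higher. Limma voom with sample weights gave 0.00591, with 5.22% called higher. EdgeR without the low-count filter gave 0.0248, with 1.34% called higher. In the authors' deposited table Ikzf2 had a log2 fold change of 0.84 and an FDR of 0.0380, and 1.32% of the genes there were higher with an FDR under 0.05. The authors' deposited table marks Ikzf2 as not significant, and the smallest absolute log2 fold change it marks is 1.20. With raw counts the gene did not pass, either as named in the raw table (0.62 ± 0.30, adjusted p = 0.999) or with the names of the corrected table and the set term (0.70 ± 0.23, adjusted p = 0.215).

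**Figure D2:**
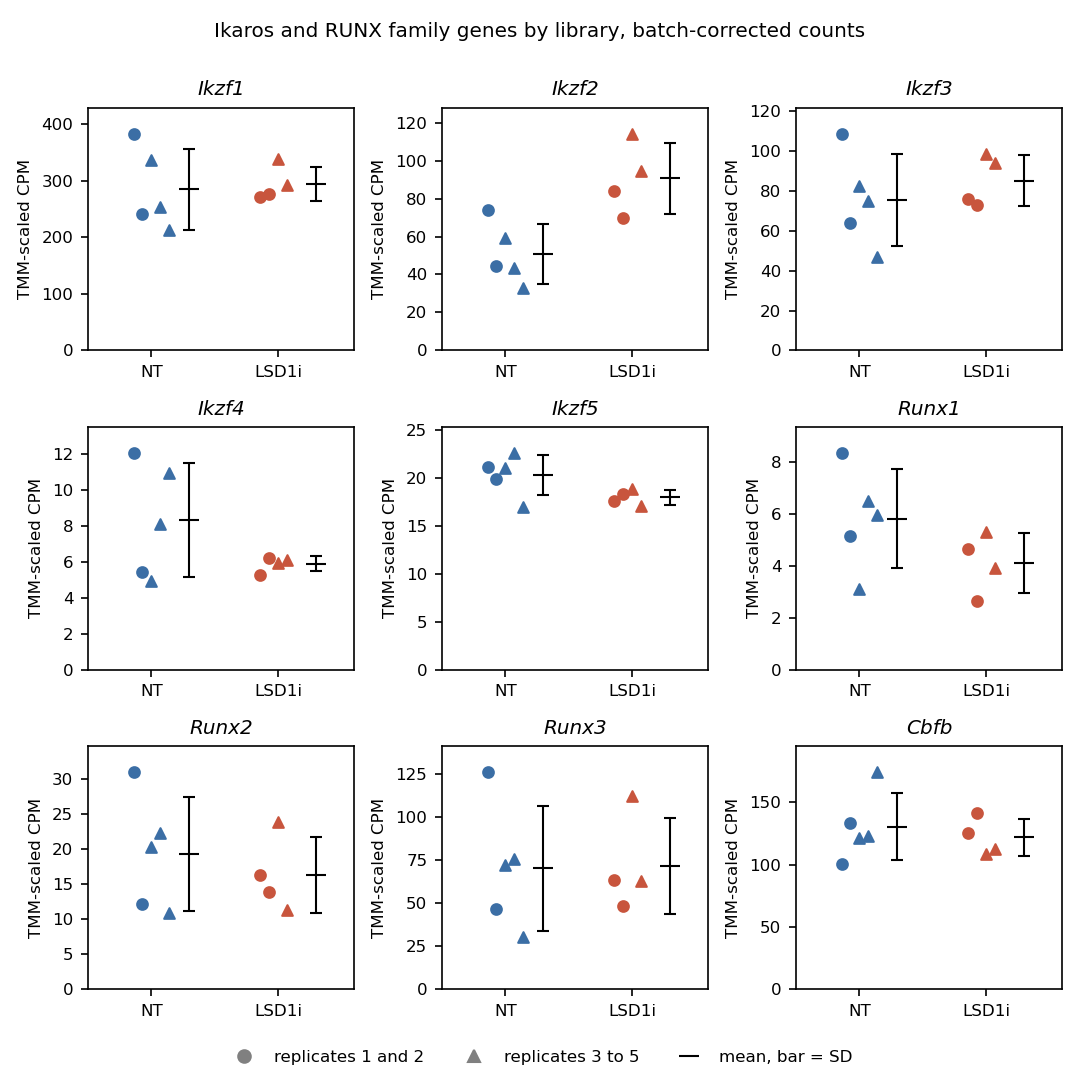
TMM-scaled CPM of each gene in each library (circles, replicates 1 and 2; triangles, replicates 3 to 5), with the mean and SD of the group beside the points. For Ikzf2 the LSD1i libraries lie between 69.9 and 114 CPM and the NT libraries between 32.8 and 73.7, and for the other 8 genes the groups overlap more widely.

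Ikzf1 (Ikaros) and Ikzf3 (Aiolos), the other abundant family members, did not pass. Ikzf1 was at 383, 240.4, 336, 254 and 212 CPM in the NT libraries, in order of replicate, and at 271, 276, 338 and 293 CPM with the inhibitor. The LSD1i libraries lay inside the NT range, and the log2 fold change was 0.046 ± 0.16 (adjusted p = 0.947). Ikzf3 was at 109, 63.7, 82.2, 75.2 and 47.0 CPM in NT and at 75.7, 72.8, 98.3 and 93.9 in LSD1i. Its log2 fold change was 0.18 ± 0.20 (adjusted p = 0.788), and again the highest and the lowest library were both NT.

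Ikzf4 (Eos) and Ikzf5 (Pegasus) had lower means in LSD1i without passing. Ikzf4 was at 12.1, 5.47, 4.97, 8.14 and 10.95 CPM in NT and at 5.30, 6.24, 5.97 and 6.14 in LSD1i. The LSD1i libraries kept within a narrow range that fell inside that of NT, and the log2 fold change was −0.50 ± 0.25 (adjusted p = 0.399). Ikzf5 ran from 17.0 to 22.6 CPM in NT and from 17.1 to 18.9 in LSD1i, with a log2 fold change of −0.18 ± 0.10 (adjusted p = 0.462). It had the smallest spread of the 9 genes, the highest library standing 1.33 times above the lowest. In the GENCODE M21 annotation (GRCm38), 4652 of the 5721 exonic bases of Ikzf5 overlap Pstk, a kinase gene on the other strand, and no strand setting is given for the counting, so reads of the pair may not be separated. Pstk had 23.7 ± 3.10 CPM in NT against 19.2 ± 1.84 in LSD1i (log2 fold change −0.30 ± 0.11, adjusted p = 0.234).

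Runx3, the RUNX factor of the cytotoxic lineage, varied more between libraries than any other member, 4.15-fold from lowest to highest. It was at 126, 46.9, 72.1, 75.6 and 30.4 CPM in NT, by replicate, and at 63.3, 48.7, 112 and 62.8 CPM with the inhibitor. The extremes were NT 1 and NT 5, and the means of 70.2 ± 36.3 and 71.8 ± 27.9 differed far less than the libraries within either group (log2 fold change 0.029 ± 0.36, adjusted p = 0.988). Without NT 1 the value was 0.36 ± 0.30, and without LSD1i 3 it was −0.26 ± 0.36. Runx3 in NT 1 was higher still in the raw counts (174 CPM).

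Runx2 and Runx1 had lower means in LSD1i and did not pass. Runx2 was at 31.0, 12.1, 20.4, 22.3 and 10.95 CPM in NT and at 16.3, 13.8, 23.9 and 11.2 with the inhibitor, giving a log2 fold change of −0.25 ± 0.31 (adjusted p = 0.804). Without NT 1 it was −0.0093 ± 0.27. Runx1 was at 8.35, 5.14, 3.13, 6.50 and 5.96 CPM in NT and at 4.64, 2.63, 5.33 and 3.92 with the inhibitor, giving a log2 fold change of −0.51 ± 0.27 (adjusted p = 0.447). These are the least abundant RUNX transcripts, with 45 to 282 raw reads of Runx1 per library, and both groups held high and low libraries.

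Cbfb, the shared partner subunit, was at 101, 134, 122, 123 and 174 CPM in NT, by replicate, and at 125, 141, 108 and 113 CPM with the inhibitor. NT 5 was the highest library and NT 1 the lowest, the reverse of Runx3. Its log2 fold change was −0.10 ± 0.14 (adjusted p = 0.846).

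The sets of replicates gave different values for several members. In the raw counts of replicates 3 to 5, the 5 libraries that both tables name alike, Ikzf2 was higher in LSD1i with a log2 fold change of 1.15 ± 0.12 and passed (adjusted p = 0.0168), where 0.803% of all genes were called higher. The batch-corrected counts of the same libraries gave 1.21 ± 0.21 (adjusted p = 0.00452, background 1.46%). In the raw counts of the 4 libraries of replicates 1 and 2, with the corrected names, Ikzf2 had 0.12 ± 0.32 (adjusted p = 0.969). In corrected CPM it was at 73.7 and 44.4 in NT 1 and NT 2, against 84.1 and 69.9 in LSD1i 1 and LSD1i 2. In raw counts with the corrected names, Runx3 had 0.51 ± 0.13 in replicates 3 to 5 (adjusted p = 0.157) and −1.11 ± 0.58 in replicates 1 and 2 (adjusted p = 0.926). The sets pointed in opposite directions without passing in either. Cbfb had −0.26 ± 0.12 and 0.32 ± 0.23, again in opposite directions and again without passing. Under the names of the raw table the direction in replicates 1 and 2 is reversed. Runx3 and Cbfb then point the same way in both sets, and Ikzf2 in opposite ways. All libraries under those names gave 0.81 ± 0.32 for Runx3 and −0.28 ± 0.15 for Cbfb (edgeR adjusted p = 0.999 each). Replicates 1 and 2 include NT 1, the library that stood apart. In raw CPM, Runx3 was at 174 in NT 1 and 46.5 in NT 2, against 63.0 in LSD1i 1 and 41.2 in LSD1i 2. In the same order Cbfb was at 91.0 and 140 against 136 and 156, and Ikzf2 at 66.1 and 35.1 against 64.2 and 48.0. The part of NT 1 in the contrast between the sets was not tested.

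The difference between the sets was itself tested, as an interaction of treatment and set on the raw counts with the corrected names, an analysis chosen after the values were seen. Its values hold only if those names are right for replicates 1 and 2. The difference of the log2 fold changes, replicates 3 to 5 minus replicates 1 and 2, was 0.99 ± 0.35 for Ikzf2, 1.58 ± 0.62 for Runx3 and −0.61 ± 0.27 for Cbfb. None of the 9 passed (edgeR quasi-likelihood), where the adjusted p of these 3 was 0.764 each and 0 of 11916 genes were called. At an unadjusted p under 0.05 there were these 3 of the 9 members (0.0184, 0.0290 and 0.0469), and 581 of 11916 genes. The 3 members cannot be taken as independent of each other. With group and set removed additively from the raw counts, r was −0.969 for Runx3 and Cbfb, −0.985 for Ikzf2 and Cbfb and 0.976 for Ikzf2 and Runx3. The difference between the sets, for which the 3 were picked, stays in these values, so they are no separate evidence. Ikzf4, Ikzf5, Runx1 and Runx2 were below 0 in both sets under the corrected names.

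**Figure D3:**
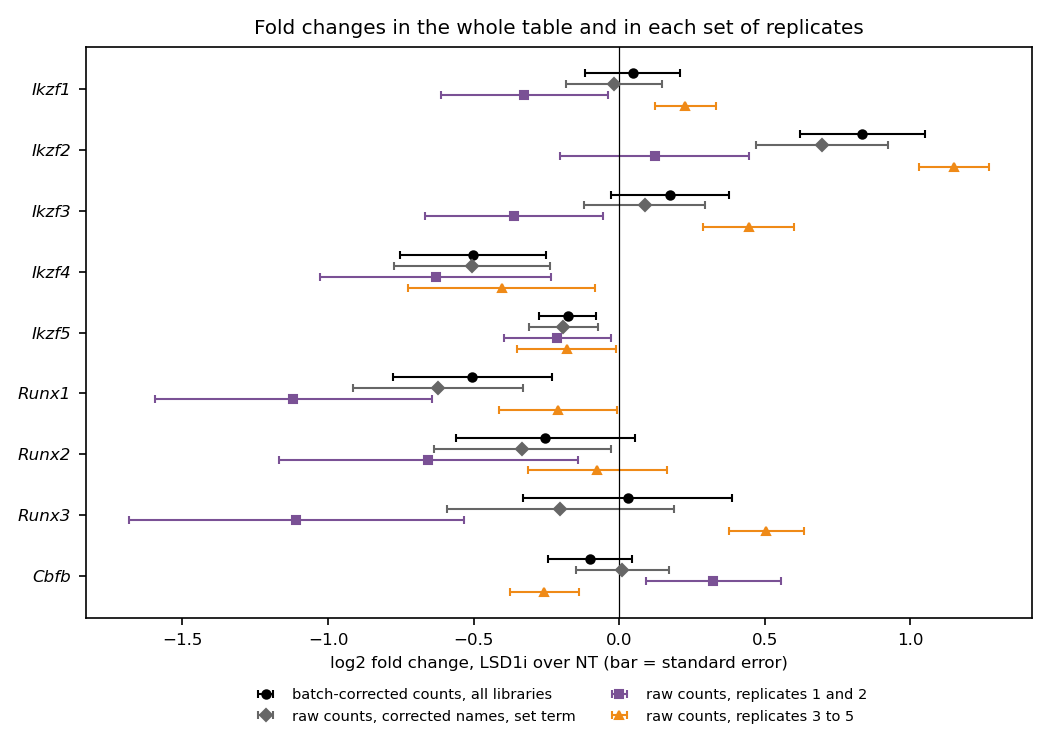
Log2 fold change of LSD1i over NT with its standard error for each gene, in the batch-corrected counts of all libraries and in raw counts with the set term, of replicates 1 and 2 and of replicates 3 to 5. Under the corrected names, Ikzf2 lies at 1.15 in replicates 3 to 5 and at 0.12 in replicates 1 and 2, and Runx3 at 0.51 and −1.11.

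Relative to Ikzf1, Ikzf2 counts separated the groups, a ratio chosen after the values were seen and given without a test. The ratio of Ikzf2 to Ikzf1 counts was 0.192, 0.185, 0.176, 0.172 and 0.155 across NT by replicate. With the inhibitor it was 0.310, 0.253, 0.338 and 0.322. Each LSD1i library lay above each NT library, and of the other 11980 tested genes, Ikzf2 included, 1.71% had a ratio to Ikzf1 that was higher in LSD1i without overlap. In the raw counts of the same libraries it ran from 0.166 to 0.197 in NT and was 0.268, 0.200, 0.365 and 0.355 in LSD1i, so that LSD1i 2 all but touched the NT range. The mean log2 ratio was higher in LSD1i by 0.45 in replicates 1 and 2 and by 0.93 in replicates 3 to 5 of the raw counts. Against Ikzf3 the corrected ratio was 0.580 to 0.719 in NT and 0.960 to 1.16 in LSD1i. In the raw counts of the same libraries this ratio overlapped, LSD1i 2 (0.798) lying just below NT 5 (0.800). As a share of the summed Ikaros family level per kilobase, Ikzf2 made up 5.69% to 6.99% in NT and 9.07% to 11.7% in LSD1i. For the ratio to Ikzf3 and for the family share, no share over all genes was computed.

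**Figure D4:**
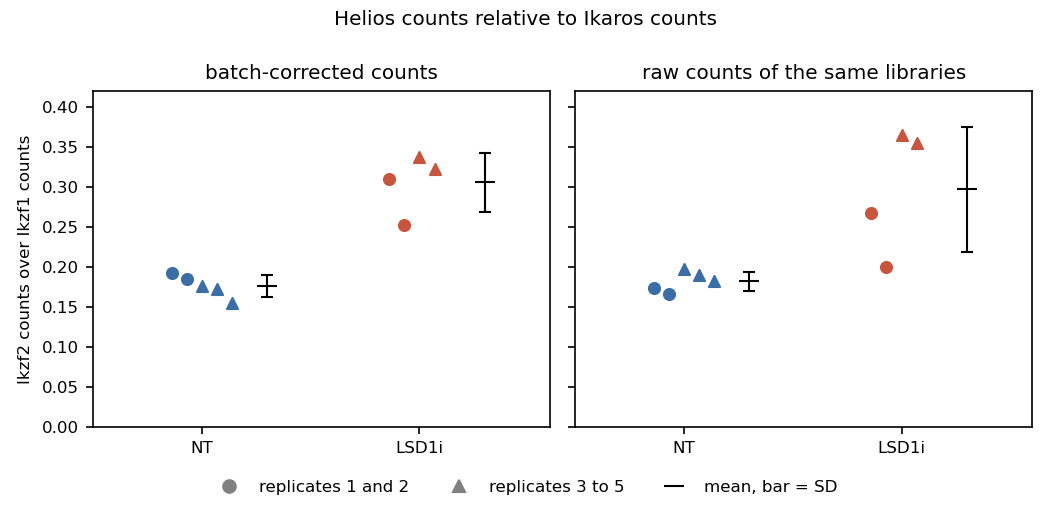
Ratio of Ikzf2 to Ikzf1 counts in each library (circles, replicates 1 and 2; triangles, replicates 3 to 5) with mean and SD, in the batch-corrected counts and in the raw counts of the same libraries under the corrected names. The corrected ratios lie between 0.155 and 0.192 in NT and between 0.253 and 0.338 in LSD1i, and the raw ratio of LSD1i 2 (0.200) lies next to the highest NT value (0.197).

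Across the 9 libraries Ikzf1, Ikzf3 and Runx3 varied together, Runx2 varied with Runx3, and Cbfb varied the opposite way to Ikzf1, Ikzf3 and Runx3. Over all 36 pairs of members, 8 passed by an exact two-sided permutation test of Pearson's r of log2 CPM with Benjamini-Hochberg adjustment. In the raw counts of the same libraries 11 passed. The permutation treats the 9 libraries as exchangeable across groups and sets. The share of other gene pairs that would pass was not computed, so the count is no trait of these families. Genes outside both families followed these members at least as closely (below). Runx3 and Cbfb had r = −0.941 (exact permutation p = 2.04e-04, adjusted p = 0.00367) and Spearman's rho = −0.867 (exact permutation p = 0.00451, adjusted p = 0.0325). Ikzf3 and Cbfb had r = −0.969 (exact permutation p = 1.05e-04, adjusted p = 0.00367) and rho = −0.967 (exact permutation p = 1.65e-04, adjusted p = 0.00595). Leaving out NT 1 and NT 5, the libraries farthest from the median, r was −0.843 and −0.882. In the raw counts the 2 relations had r = −0.881 and −0.947. Runx2 and Runx3 had r = 0.892 (exact permutation p = 7.74e-04, adjusted p = 0.00558) and rho = 0.950 (exact permutation p = 3.53e-04, adjusted p = 0.00635), and r = 0.816 without the same libraries. Ikzf1 was less firmly tied to the others. Its r with Runx3 went from 0.884 to 0.681 without NT 5 and NT 1, with a rho of 0.783 that did not pass (exact permutation p = 0.0172, adjusted p = 0.0856). Its r with Cbfb went from −0.860 to −0.627 without the same libraries (rho = −0.867, exact permutation p = 0.00451, adjusted p = 0.0325), so both relations rest in part on NT 1 and NT 5.

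Each set of replicates holds fewer than 6 libraries, so no r is given within a set. With the means of group and set removed from all 9 libraries, an analysis chosen after the values were seen and given without a test (6 residual degrees of freedom), r was −0.945 for Runx3 and Cbfb, −0.977 for Ikzf3 and Cbfb, 0.933 for Runx2 and Runx3, 0.885 for Ikzf1 and Runx3 and −0.856 for Ikzf1 and Cbfb. In the raw counts these values were −0.969, −0.978, 0.866, 0.958 and −0.925. The removal was additive, so a treatment difference that varies between the sets stays in these values. The values of a library share its preparation and depth. NT 1, at the upper end of Runx3 and the lower end of Cbfb, is the library with the largest share of Rn45s reads, and the part of that share in the pattern was not tested. Ikzf2 followed Ikzf3 (r = 0.809, exact permutation p = 0.00727, adjusted p = 0.0327, and rho = 0.767, exact permutation p = 0.0214, adjusted p = 0.0856). Without LSD1i 3 and NT 5 this r fell to 0.588, so its size over all libraries depends in part on those libraries. With the means of group and set removed r was 0.947. Runx1, Ikzf4 and Ikzf5 were in none of the 8 pairs that passed.

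**Figure D5:**
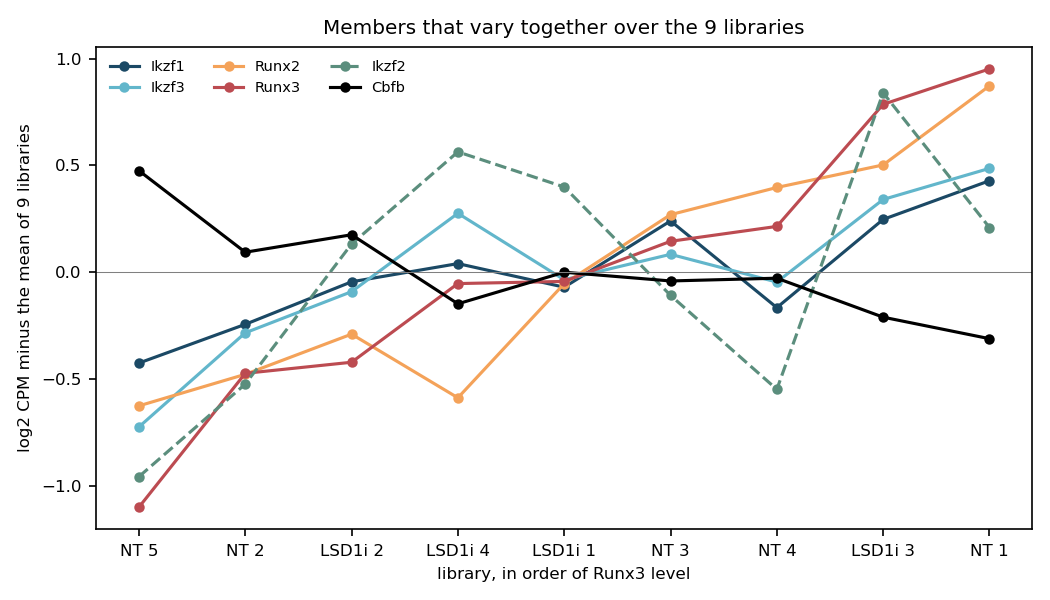
Log2 CPM of 6 members in each library, less the mean of the 9 libraries, with the libraries ordered by their Runx3 level. Ikzf1, Ikzf3 and Runx2 are low in NT 5 and high in NT 1 and Cbfb is the reverse, while Ikzf2 (dashed) is higher in the LSD1i libraries than in the NT libraries beside them.

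Few partner genes of either family were called, where 3.31% of all tested genes were called. Of 17 genes of the complexes that Ikaros proteins recruit (NuRD, SIN3 and CtBP), 0 were called, and their median log2 fold change was −0.050. The smallest p-values were those of Mbd2, a methyl-CpG binding subunit (0.31 ± 0.09, adjusted p = 0.0994), Chd3, a remodelling ATPase (0.26 ± 0.08, adjusted p = 0.123), and the corepressor Ctbp2 (−0.55 ± 0.19, adjusted p = 0.175). Of 5 genes of the cereblon ubiquitin ligase, through which thalidomide analogues degrade Ikaros and Aiolos in human cells, 0 were called, with a median of 0.012. Rbx1 (0.10 ± 0.12), Cul4b (0.081 ± 0.11) and Crbn itself (−0.042 ± 0.11) had the smallest p-values there, the lowest adjusted p being 0.793.

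Of 16 tested RUNX partners 1 rose and 0 fell, with a median log2 fold change of −0.12. The riser was Yap1, a coactivator of the Hippo pathway that can bind RUNX proteins, at 4.16 ± 1.01 CPM in NT and 9.96 ± 1.85 in LSD1i (1.25 ± 0.19, adjusted p = 0.00407). It passed with each library left out in turn (adjusted p up to 0.0196) and in raw counts fitted with the set term (0.0133). Hipk2, a kinase (−0.65 ± 0.19, adjusted p = 0.102), and Ets1, a factor that binds DNA together with RUNX1 (0.26 ± 0.08, adjusted p = 0.134), came next and did not pass.

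Among 13 tested genes known to be under RUNX control in T cells 3 rose and 1 fell, with a median of −0.093. Of all tested genes 3.31% were called either way. The list was chosen with earlier results of these data known, so its counts are no measure of RUNX activity. Eomes, a T-box factor, rose by 0.82 ± 0.10 (adjusted p = 0.00108), the cytokine gene Il3 by 0.86 ± 0.17 (0.0159) and the coreceptor gene Cd8a by 0.38 ± 0.08 (0.0266). Csf2, which encodes GM-CSF, was lower by a log2 fold change of −1.06 ± 0.23 (adjusted p = 0.0310). In raw counts fitted with the set term Eomes passed (0.00270), and Il3 (0.114), Cd8a (0.126) and Csf2 (0.0770) did not. Leaving out 1 library, Eomes kept its call in 9 of 9 cases, Il3 lost it without LSD1i 1 (0.0647), and Cd8a and Csf2 lost it in 6 of 9 cases each (up to 0.101 and 0.104). Each of the 6 cases took in NT 2, NT 4, LSD1i 1, LSD1i 2 and LSD1i 4, with NT 3 for Cd8a and LSD1i 3 for Csf2. In replicates 3 to 5 alone Eomes missed the threshold (0.70 ± 0.12, adjusted p = 0.0625 in raw counts, and 0.66 ± 0.18, adjusted p = 0.0687 in corrected counts). Il3 there was at 0.44 ± 0.24 in raw counts (adjusted p = 0.483). Cd4, which Runx3 silences, had at most 7 raw reads in any library.

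Among 12 tested genes known to be under Ikaros control in lymphocytes 2 rose and 1 fell, with a median of −0.035, against 3.31% of all tested genes called. This list too was chosen with earlier results known, so its counts are no measure of Ikaros activity. Dntt, the terminal deoxynucleotidyl transferase of immature lymphocytes and a target that Ikaros represses, went from 15.3 ± 5.10 to 54.8 ± 11.4 CPM (1.83 ± 0.23, adjusted p = 0.00112). It passed with each library left out (up to 0.00642) and in raw counts fitted with the set term (0.00242). The other riser was Cd8a, which is counted in the RUNX list as well. Cdk6, a cell cycle kinase, fell from 104 ± 15.1 to 72.8 ± 6.60 CPM (−0.52 ± 0.11, adjusted p = 0.0311). Its call was lost without NT 3, NT 4, LSD1i 1, LSD1i 3 or LSD1i 4 (up to 0.111) and in raw counts fitted with the set term (0.0608).

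The markers of the labelled cell type were high and those of other lymphocytes mostly near 0. Of all tested genes 3.31% were called either way, the share beside which the marker counts stand. The summed level of 10 T cell identity genes was 2530 to 2810 CPM in NT and 2870 to 3010 in LSD1i, with 1 of 10 called, Cd8a. Of the CD4 and regulatory T cell markers, the lineage in which Helios and Eos are best known, Cd4 and Foxp3 had at most 7 and 4 raw reads in a library. Their list summed to 1910 to 2610 CPM in NT and 1940 to 2330 in LSD1i, nearly all of it from Ctla4, Il2ra and Tnfrsf18, which activated CD8+ T cells express too, and of 6 tested members 0 rose and 1 fell, Nrp1 (−0.52 ± 0.10, adjusted p = 0.0169). The call of Nrp1 was lost without NT 2, LSD1i 1 or LSD1i 3 (up to 0.0720), in raw counts fitted with the set term (0.0524) and in replicates 3 to 5 of the raw counts (0.228). Of 7 NK and innate-like genes in the files, Ncr1, Klra4 and Klra8 were at 0 in each library, and 1 of 3 tested, Eomes, was called, the sum being 81.0 to 108 CPM in NT and 112 to 134 in LSD1i.

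B cell markers, whose lineage carries much Ikaros and Aiolos, summed to 11.9 to 13.1 CPM in NT and 10.2 to 11.9 in LSD1i. Cd79a, Ms4a1 and Pax5 had at most 4 raw reads in a library. Of 3 tested, Cd22 rose (3.58 ± 0.54, adjusted p = 0.00365) and Cd79b (−0.43 ± 0.09, 0.0317) and Ebf1 (−1.25 ± 0.30, 0.0480) fell. Of all tested genes 2.15% were called higher and 1.16% lower. Cd22 was at only 0.125 ± 0.152 CPM in NT and 1.69 ± 0.487 in LSD1i, with at most 55 raw reads in a library. Ebf1 had at most 23, so both calls lie near the floor. The calls of Cd79b and Ebf1 were lost in 7 of 9 and 4 of the 5 fits that left out 1 library and tested them (up to 0.123 and 0.162), each without any 1 of the 4 LSD1i libraries and, for Cd79b, also without NT 2, NT 3 or NT 4. Myeloid markers summed to 20.1 to 44.3 CPM in NT and 14.5 to 28.2 in LSD1i, nearly all of it Cebpb, with Lyz2, Csf1r, Cd14 and Spi1 at 2 raw reads or fewer, and 0 of 1 tested was called.

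The genes whose log2 CPM over the 9 libraries was most like that of Ikzf2, of 9587 compared, were Ndrg1 (r = 0.993, log2 fold change 0.99), Tespa1 (r = 0.993, 0.47) and H2-Ob (r = 0.991, 0.50). Those most like Runx1 were Rell1 (r = 0.962), Prrc2a (0.945) and Ptpn3 (0.943). Lpp (0.973) and Atp13a3 (0.970) were among those most like Ikzf4. Runx3 was most like Dip2b (0.997), Ankrd44 (0.996) and Qser1 (0.995), and Ikzf3 was most like Dock2 (0.994). Cbfb was most like D2Wsu81e (0.985), Runx2 most like Akap13 (0.984) and Ikzf1 most like Gpatch8 (0.987). These are descriptions of 9 libraries that share their groups and preparation.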

How the data were processed

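RNA sequencing of 5 NT and 4 LSD1i libraries was re-analysed from the deposited tables. Libraries were made with a SMARTER mRNA-Seq kit, per the labels' protocols. STAR, featureCounts, edgeR and build mm9 are named in the submitters' processing notes, which give no role, version or strand setting. The authors deposited raw counts, whole reads per gene, and batch-corrected counts, treated as estimated counts and rounded to whole numbers, with no method of correction named. A further table by the authors, deposited with their comparison, holds log2 fold changes and mean log2 CPM, an F score and p-values, of which fold changes, p-values and marks were used.

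Testing used edgeR 4.0.16 under R 4.3.3 (quasi-likelihood), run across all genes that passed filterByExpr (minimum count 10, minimum total 15), with TMM scaling, group as the only term, and Benjamini-Hochberg adjustment at 0.05. All 9 members passed the filter. Standard errors of log2 fold changes are the coefficient over the square root of F. DESeq2 1.42.0 and limma 3.58.1 were alternatives. The script was tested on simulated data. The members and lists were chosen with earlier results of these data known. Named genes of each list are those that passed and the 3 with the smallest p, and of each marker list those that passed. Likeness of patterns was Pearson's r of log2 (CPM + 0.5) among genes with a mean of at least 5 CPM. Libraries were matched between the tables by genes at 0, with 0 mismatches for the matched partner and at least 1336 for the next. Replicates of a group all differed by more than counting noise (lowest chi-square per degree of freedom 7.10). Lengths are union exon lengths from GENCODE M21 (GRCm38). Some values are not reported here.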

Additional observations from a re-analysis of the deposited data

How the results depend on the processing

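Over 21 alternatives, 155 of 189 log2 fold changes of the members kept their direction and their side of the threshold, 8 gained a call (each Ikzf2) and 26 changed sign, none of these called. The count of members higher in LSD1i, 0, became 1 with DESeq2, limma voom, no low-count filter, the replicate block on the corrected counts, and replicates 3 to 5 alone in raw or corrected counts, and was 0 to 1 with 1 library left out. Members lower stayed at 0 throughout.

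All genes called higher (258) and lower (139) became 0 and 0 with raw counts as named in the raw table, 166 and 54 with raw counts, corrected names and the set term, and 71 and 13 with those counts and group only. They became 97 and 20 in replicates 3 to 5 of the raw counts, 8 and 0 in replicates 1 and 2, 400 and 267 with DESeq2 and 625 and 434 with limma voom. The lower count was 69 in replicates 3 to 5 of the corrected counts. Leaving out 1 library gave 163 to 303 higher and 56 to 159 lower.

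Same-numbered libraries did not deviate together in the corrected table (r of their deviations −0.325 to 0.317). In the raw counts the r was 0.510 to 0.762, where same-numbered libraries also belong to the same set of replicates. In the corrected table none of the 4 LSD1i libraries was most like the NT library of its number, and the labels give no pairing. With the replicate block Ikzf2 had 0.73 on corrected counts (adjusted p = 0.0301, passing) and 0.64 on raw counts (0.101), Ikzf1 −0.021 and −0.034, Runx3 −0.14 and −0.20, and Cbfb 0.026 and 0.094.

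Other changes of sign, with raw counts and corrected names, were those of Ikzf1 (−0.018 with the set term, −0.33 in replicates 1 and 2, −0.020 with group only), Ikzf3 (−0.36 in replicates 1 and 2), Runx3 (−0.20, −1.11 and −0.26) and Cbfb (0.011, 0.32 and 0.040). With raw counts as named in the raw table, signs changed for Ikzf4 (0.25), Runx1 (0.45), Runx2 (0.20), Mbd2 (−0.092), Hipk2 (0.23), Rbx1 (−0.13), Eomes (−0.26), Il3 (−0.23), Cd8a (−0.037), Nrp1 (0.012) and Cd22 (−0.43). Rbx1 was at −0.0044 in replicates 3 to 5 of the corrected counts and Cul4b at −0.029 in replicates 1 and 2. With 1 library left out Ikzf1 ranged from −0.038 to 0.18, Runx3 from −0.26 to 0.36, Cbfb from −0.17 to 0.031 and Crbn from −0.11 to 0.027. The cause was not tested. The group-only fit of raw counts and the fit of replicates 3 to 5 of the corrected counts were chosen after seeing the data.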
